A study of Homo sapiens with 6 samples.

Results

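The genes described here are 10 innate sensors and adaptors: DDX58, IFIH1, DHX58, MAVS, MB21D1, TMEM173, IFI16, AIM2, TLR2 and TLR3. All but TLR2, a sensor of bacterial lipoproteins, belong to the sensing of foreign or misplaced nucleic acid. They were taken by symbol, in the older spelling that the deposited table uses, and all 10 were found among its 18678 genes. The products of DDX58, MB21D1 and TMEM173 are better known as RIG-I, cGAS and STING. Messenger RNA was sequenced from Cal27, a human line established from a tongue squamous carcinoma, and from Cal27-shGRK2, its derivative with a short hairpin RNA against the G protein-coupled receptor kinase GRK2. The labels name 3 libraries per group and say neither whether Cal27 carried a control hairpin or vector, nor how many hairpins or clones were used. Apart from the hairpin, the labels name no added agent, virus or nucleic acid. Whether the making of Cal27-shGRK2 itself affected the levels of these sensors was not tested.

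Cells meet viral or misplaced nucleic acid with a small set of receptors. RIG-I and MDA5 (the product of IFIH1) are cytoplasmic helicases that bind double-stranded RNA and signal through MAVS, an adaptor on the mitochondrial outer membrane, while LGP2 (the product of DHX58) is a related helicase that lacks the signalling domains and modulates the other members. cGAS binds DNA in the cytosol and makes a cyclic dinucleotide that activates STING on the endoplasmic reticulum. MAVS and STING both lead to the kinase TBK1 and the transcription factor IRF3, which switch on type I and type III interferon genes. Interferon then acts through its receptors and JAK kinases and raises the transcripts of many of the sensors themselves. In keratinocytes and the carcinomas that arise from them these sensors are known to be present without any immune cell.

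In Cal27-shGRK2 the columns of replicates 0 and 1 were identical for each of the 18678 genes, where other pairs within a group matched in 55 to 94 genes, and were counted as 1 sample. All comparisons are therefore of 3 Cal27 with 2 Cal27-shGRK2 libraries, called below the library shared by replicates 0 and 1, and replicate 2. This name describes the columns, not how the libraries were made. The authors' condition value for Cal27-shGRK2 equalled the mean of its columns in only 0.389% of the genes compared, against 100% for Cal27. The labels do not say if a column of another library was lost. Whether each library had a culture of its own is not said in the labels. The p-values therefore cover the spread of these samples alone, and that spread may be technical. Values are FPKM (fragment counts divided by transcript length and library size), which allow levels of different genes to be compared. Their sequencing depth is unknown. They summed to between 590163 and 644831 per library. GRK2 itself, listed as ADRBK1, was at 55.3, 59.4 and 55.8 FPKM in Cal27 and at 17.3 and 16.6 FPKM in Cal27-shGRK2. All 12 markers of squamous carcinoma were present at a mean of 1 FPKM or more. Of these 9 fell and 3 rose, and their sum went from between 3080 and 3450 FPKM in Cal27 to between 1390 and 1420 FPKM in Cal27-shGRK2, with the basal keratin KRT5 its largest part. Of 8 lymphocyte markers none was among the genes of the table, and neither were 6 of 12 monocyte and macrophage markers and 5 of 7 plasmacytoid dendritic cell markers. These were not analysed here. The 6 monocyte and macrophage markers in the table, of which ITGAX was listed at 0 in Cal27 replicate 2, summed to 2.67 to 3.81 FPKM in Cal27 and to 6.42 to 6.70 FPKM in Cal27-shGRK2. CD68, a lysosomal protein that is not limited to macrophages, was the single one with a mean of at least 1 FPKM, and it rose (log2 fold change 1.29, limma adjusted p = 7.3e-07). Genes of the monocyte and macrophage list did not all move with its sum. CSF1R, ITGAM and ITGAX had higher means in Cal27-shGRK2, as CD68 did. The means of FCER1G (0.530 to 0.334 FPKM) and CD14 (0.883 to 0.629 FPKM) were lower there. The 5 fibroblast and endothelial markers in the table summed to 7.92 to 8.68 FPKM in Cal27 and to 11.2 to 11.5 FPKM in Cal27-shGRK2, and the 2 plasmacytoid markers to at most 0.834 FPKM. The part of any of these in the results was not tested.

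In Cal27-shGRK2 cells 6 of the 10 genes fell: the 3 RNA helicases DDX58, IFIH1 and DHX58, the DNA sensor MB21D1, its adaptor TMEM173 and the DNA-binding protein IFI16. None rose. The adaptor MAVS, the inflammasome sensor AIM2 and the Toll-like receptors TLR2 and TLR3 did not pass the test. Losses were moderate, from a mean that was 16.3% lower for MB21D1 to 45.1% lower for IFI16. All 10 genes had a mean of at least 1 FPKM and were tested with limma on log2(FPKM + 1) together with all other genes that did. Of the 13377 genes tested, 1949 (14.6%) were lower at an adjusted p of 0.05, 2008 (15.0%) were higher and 29.6% were called in either direction. The median log2 fold change was -0.26 over the 10 genes and -0.005 over all genes tested. The libraries of both groups did not overlap for 8 of the 10, against 53.3% of all genes tested. Leaving out the library that Cal27-shGRK2 replicates 0 and 1 share, 4 of the 10 were lower, as IFIH1 and MB21D1 lost their calls. Each fit without a Cal27-shGRK2 library leaves 1 library in that group, which is assumed to vary as the Cal27 libraries do, so calls lost or kept in such fits are a weak check. In a bulk sample fewer cells with a transcript and less of it per cell cannot be told apart.

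**Figure D1:**
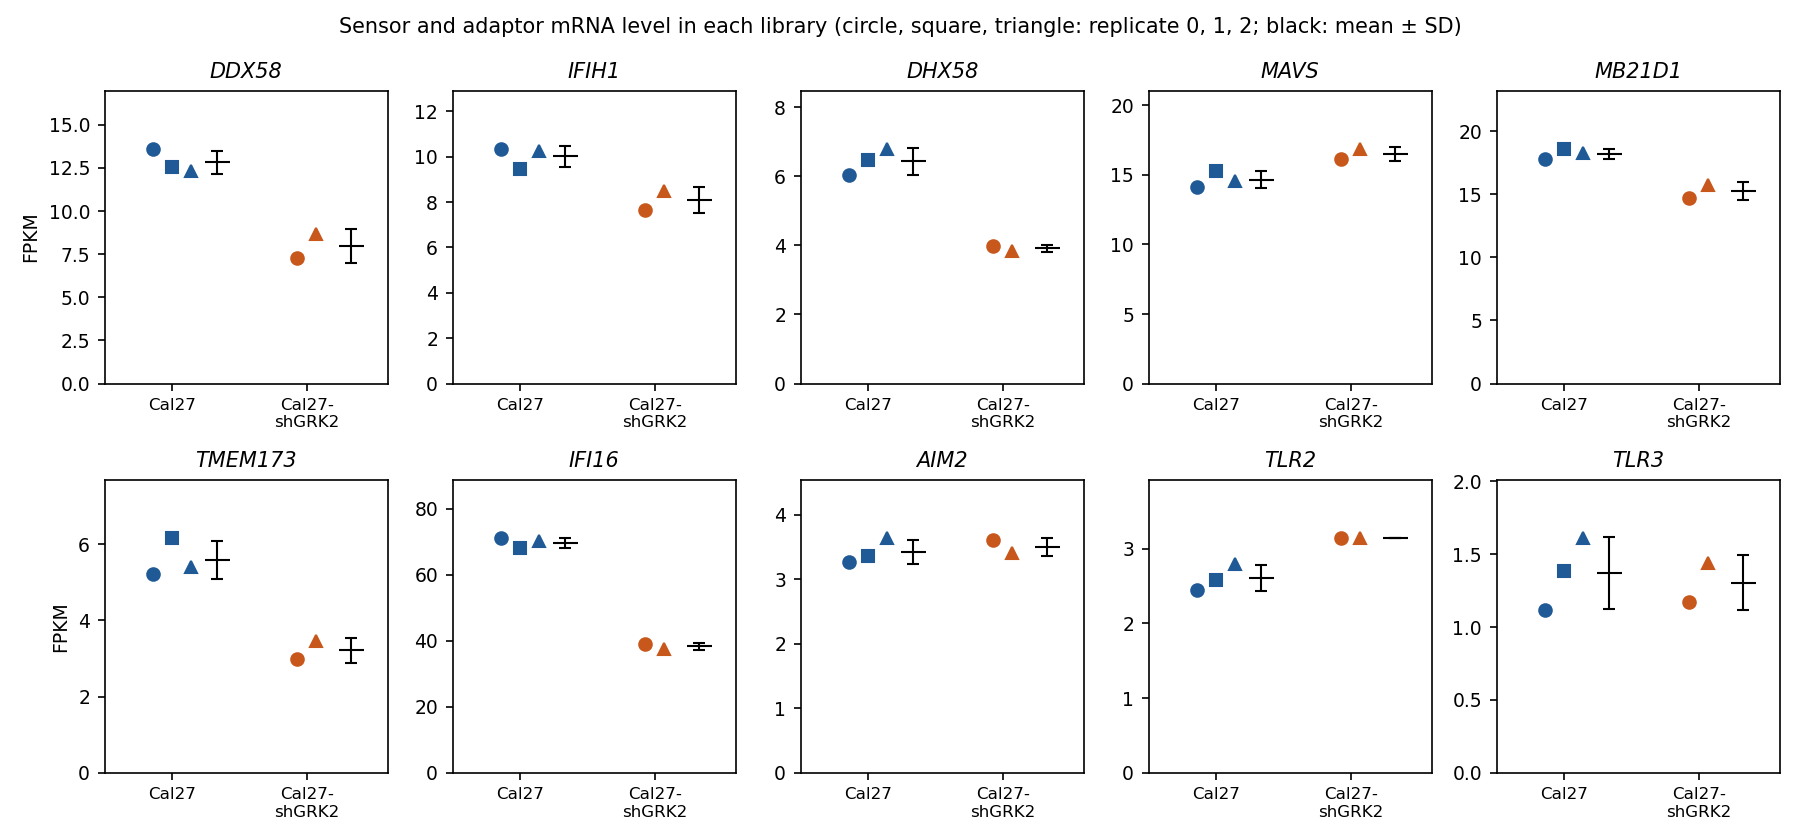
FPKM of each of the 10 genes (vertical axes, each starting at 0) in 3 Cal27 and 2 Cal27-shGRK2 libraries. Circles, squares and triangles are replicates 0, 1 and 2, the Cal27-shGRK2 circle stands for replicates 0 and 1 together, and black marks give the mean and SD. The groups overlap for AIM2 and TLR3, the Cal27-shGRK2 libraries lie above Cal27 for MAVS and TLR2, and they lie below it for the other 6 genes.

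Promoter sequences are shown because 6 of the genes fell, though by unlike amounts, and several are known targets of interferon. Whether interferon had a part in these falls was not tested. RefSeq windows (GRCh38.p14, 250 bases before to 50 after a start) were matched for 7 of the 10 genes, with 8 windows in all because IFI16 has a pair. DHX58, MB21D1 and TMEM173 had none. The core of the interferon-stimulated response element, searched on either strand as GAAA followed after any 2 bases by GAAA again, was found for IFIH1, AIM2 and TLR3, while 3.57% of all 35116 windows held it. Of these 3 genes IFIH1 fell and the others did not pass. The IFIH1 window held 3 matches, of which 2 overlap on the opposite strand (chr2:162318821-162318850, minus strand) and 1 lies next to the start (chr2:162318685-162318714, minus strand). The AIM2 match lies within chr1:159076903-159077002 (minus strand), and the TLR3 match spans the start (chr4:186069142-186069171, plus strand). All positions are those of the printed stretches, not of the matches alone. With a search of the gene strand only, IFIH1 was the 1 gene with a match, and 1.69% of all windows held one. Capitals mark the matches in the sequences, which run 5′ to 3′ along the gene.
IFIH1 upstream: aattcgcTTTCCTTTTCTGTTTCccgcggt
IFIH1 at the start: aagagaatcGAAACAGAAAccaaagtcagg
AIM2: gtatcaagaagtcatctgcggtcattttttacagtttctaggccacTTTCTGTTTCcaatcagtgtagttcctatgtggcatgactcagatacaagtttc
TLR3: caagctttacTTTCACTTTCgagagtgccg

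The windows of DDX58 and IFI16, which fell, held no match of that core. Each held 1 match of GAAANGAAA, a pattern with a single base between its repeats that was chosen after these windows had been read, so the match is not a result. It was found in 3.12% of all windows on either strand, and 0.302% held both patterns. The DDX58 stretch lies at chr9:32526337-32526436 (minus strand) and that of IFI16 at chr1:159009787-159009886 (plus strand), and capitals mark the match.
DDX58: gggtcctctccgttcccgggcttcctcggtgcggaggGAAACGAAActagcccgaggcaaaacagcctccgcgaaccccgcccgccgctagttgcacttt
IFI16: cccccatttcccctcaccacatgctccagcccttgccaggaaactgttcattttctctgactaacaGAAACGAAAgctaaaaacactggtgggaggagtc
The MAVS and TLR2 windows held neither pattern. A match of letters says nothing of whether a factor binds there.

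All 3 RIG-I-like receptor transcripts fell, with means that were 37.8% lower for DDX58, 39.1% lower for DHX58 and 19.4% lower for IFIH1. DDX58 (ENSG00000107201.9, chromosome 9, 32455705 to 32526324, minus strand; identifiers are those of the table and positions those of GENCODE version 29, hg38) was at 13.6, 12.6 and 12.3 FPKM in the Cal27 libraries and at 7.28 and 8.68 FPKM in the Cal27-shGRK2 libraries. The groups did not overlap, and of both Cal27-shGRK2 values the lower was that of the library shared by replicates 0 and 1. The mean of DDX58 was 12.8 ± 0.664 FPKM in Cal27 (SD, n = 3) and 7.98 ± 0.991 FPKM in Cal27-shGRK2 (SD, n = 2), a log2 fold change of -0.63 ± 0.08 (SE, limma adjusted p = 3.6e-05).

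DHX58 (ENSG00000108771.12, chromosome 17, 42101404 to 42112733, minus strand) was the least abundant of the RNA helicases in both groups. It was at 6.03, 6.48 and 6.79 FPKM in Cal27 and at 3.99 and 3.84 FPKM in Cal27-shGRK2. Both Cal27-shGRK2 libraries lay well under the lowest Cal27 library, and the log2 fold change was -0.60 ± 0.08 (limma adjusted p = 7.2e-05). IFIH1 (ENSG00000115267.5, chromosome 2, 162267079 to 162318703, minus strand) was at 10.3, 9.48 and 10.2 FPKM in Cal27 and at 7.67 and 8.49 FPKM in Cal27-shGRK2. The gap between the groups was narrower than for the other helicases. For IFIH1 there was a log2 fold change of -0.28 ± 0.08 (limma adjusted p = 0.014), and the call was lost without the library shared by replicates 0 and 1 (log2 fold change -0.22, adjusted p = 0.16). Its promoter window overlaps the divergent neighbour GCA, which codes for the calcium-binding protein grancalcin and was at means of 9.15 and 8.41 FPKM in Cal27 and Cal27-shGRK2 (log2 fold change -0.11, limma adjusted p = 0.40). GCA was added after its position was seen.

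MAVS, the adaptor that all RIG-I-like signalling passes through, did not share the fall of its receptors. It was at 14.1, 15.3 and 14.6 FPKM in Cal27 and at 16.1 and 16.9 FPKM in Cal27-shGRK2 (ENSG00000088888.17, chromosome 20, 3846799 to 3876123, plus strand). Both Cal27-shGRK2 libraries lay above all Cal27 libraries. The log2 fold change of MAVS was 0.16 (95% interval 0.01 to 0.31) and did not pass (limma adjusted p = 0.10). It passed, as higher in Cal27-shGRK2, under median-of-ratios scaling (adjusted p = 0.048), after rescaling of all libraries to 1 total (adjusted p = 0.016), and with an added Cal27-shGRK2 library computed from the authors' condition value (adjusted p = 0.046).

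**Figure D2:**
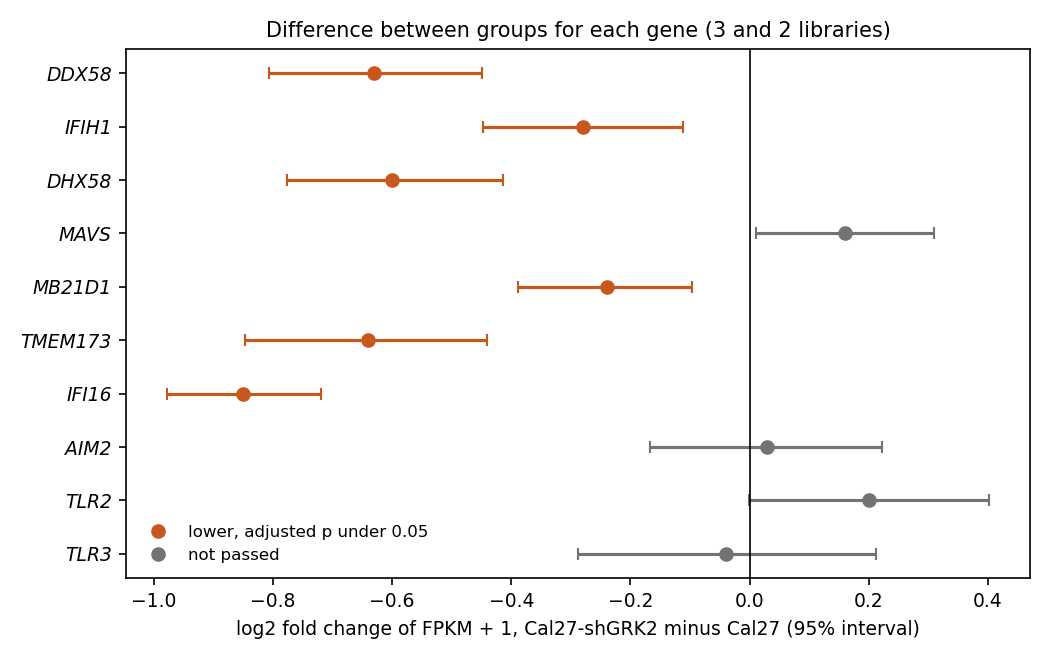
Log2 fold change of FPKM + 1 (horizontal axis, Cal27-shGRK2 minus Cal27) for each gene, with 95% intervals from limma over 3 and 2 libraries. Orange points passed an adjusted p of 0.05 and grey points did not. The 6 genes that passed lie between -0.85 and -0.24, and MAVS and TLR2 lie to the right of 0.

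The level of each helicase was also set against that of MAVS. The ratio of DDX58 to MAVS within a library, which does not depend on how the library was scaled, was 0.963, 0.823 and 0.846 in Cal27 and 0.451 and 0.515 in Cal27-shGRK2. DHX58 to MAVS was 0.427, 0.424 and 0.465 in Cal27 and 0.247 and 0.228 in Cal27-shGRK2. IFIH1 to MAVS was 0.733, 0.620 and 0.702 against 0.475 and 0.504. In none of the 3 did the groups overlap. Between the helicases, the ratio of DDX58 to IFIH1 was 1.31, 1.33 and 1.20 in Cal27 and 0.949 and 1.02 in Cal27-shGRK2. IFIH1 made up 33.2% to 34.9% of the summed FPKM of the 3 helicases in Cal27 and 40.4% to 40.5% in Cal27-shGRK2, whereas the share of DDX58 went from 42.0% to 45.4% down to 38.4% and 41.3%. For each of these 4 ratios the exact permutation test over libraries, two-sided, returned p = 0.1. With 3 libraries against 2 no smaller value is possible, and it became 0.13 after Benjamini-Hochberg adjustment over the 8 pairs compared, so none of these differences passed.

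**Figure D3:**
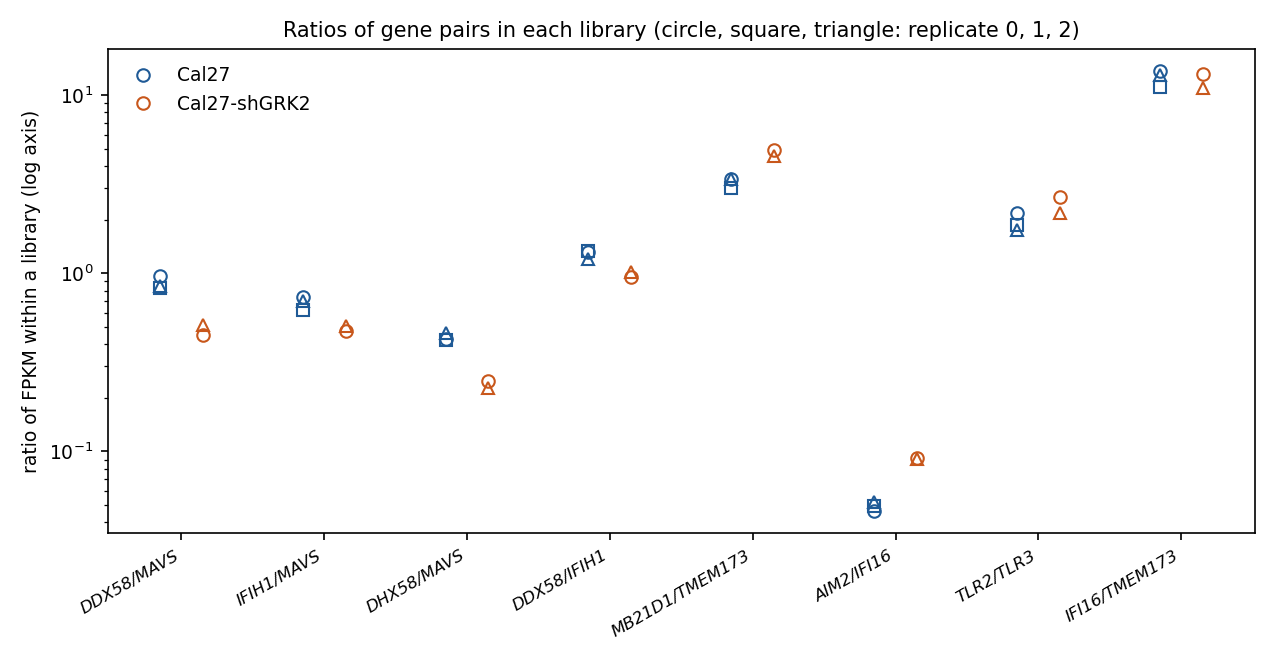
Ratio of FPKM of 2 genes within a library (vertical log axis) for 8 pairs, in Cal27 (blue) and Cal27-shGRK2 (orange), with circles, squares and triangles for replicates 0, 1 and 2. The groups lie apart for 6 of the 8 pairs and overlap for TLR2/TLR3 and IFI16/TMEM173.

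In the cGAS and STING branch both transcripts fell, with a mean that was 16.3% lower for the sensor and 42.5% lower for the adaptor. MB21D1, the cGAS gene (ENSG00000164430.15, chromosome 6, 73413515 to 73452276, minus strand), was at 17.8, 18.6 and 18.3 FPKM in Cal27 and at 14.7 and 15.7 FPKM in Cal27-shGRK2. The groups did not overlap. The log2 fold change of MB21D1 was -0.24 ± 0.07 (limma adjusted p = 0.015), and the call was lost without the library shared by replicates 0 and 1 (log2 fold change -0.20, adjusted p = 0.14). It was also not among the genes called in the authors' deposited table (q = 0.077). MB21D1 shares 4055 bases with DDX43, a helicase gene on the opposite strand, at its 3′ end. The library kit keeps strand, but no source used here says whether the counting used it. DDX43 was at 2.76 to 3.30 FPKM over the 5 libraries, far below MB21D1, and its group means were 3.04 FPKM (Cal27) and 3.05 FPKM (Cal27-shGRK2).

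TMEM173, the STING gene (ENSG00000184584.12, chromosome 5, 139475534 to 139482935, minus strand), was at 5.22, 6.15 and 5.40 FPKM in Cal27 and at 2.98 and 3.45 FPKM in Cal27-shGRK2. Every Cal27-shGRK2 value was under every Cal27 value, and the mean was 1.74-fold lower. The log2 fold change was -0.64 ± 0.09 (limma adjusted p = 9.5e-05). The ratio of MB21D1 to TMEM173 was 3.40, 3.02 and 3.38 in Cal27 and 4.94 and 4.57 in Cal27-shGRK2, with no overlap (exact permutation p = 0.1, adjusted 0.13).

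IFI16 and AIM2 belong to one family of proteins that bind DNA through a HIN domain and carry a pyrin domain, and they are neighbours on chromosome 1, but only IFI16 passed the test. IFI16 (ENSG00000163565.18, 158999968 to 159055155, plus strand) is a mostly nuclear DNA-binding protein reported to act with STING. It was at 71.0, 68.0 and 70.0 FPKM in Cal27 and at 39.1 and 37.4 FPKM in Cal27-shGRK2. Replicates lay close together and the groups far apart. The mean of IFI16 was 69.7 ± 1.54 (SD, n = 3) against 38.3 ± 1.16 FPKM (SD, n = 2), a log2 fold change of -0.85 ± 0.06 (limma adjusted p = 4.6e-08), the largest change among the 10 genes with these settings.

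AIM2, which binds cytosolic DNA and assembles the inflammasome with the adaptor PYCARD and caspase-1, lies 7328 bases beyond the end of IFI16 and is read from the opposite strand (ENSG00000163568.13, 159062484 to 159147096). AIM2 was at 3.28, 3.36 and 3.64 FPKM in Cal27 and at 3.61 and 3.41 FPKM in Cal27-shGRK2. The libraries of the groups were mixed, and the log2 fold change was 0.03 (95% interval -0.17 to 0.22, limma adjusted p = 0.85). The ratio of AIM2 to IFI16 was 0.0462, 0.0494 and 0.0519 in Cal27 and 0.0923 and 0.0911 in Cal27-shGRK2, with no overlap (exact permutation p = 0.1, adjusted 0.13). The ratio of IFI16 to TMEM173, which both fell, overlapped between the groups, at 13.6, 11.1 and 13.0 in Cal27 and 13.1 and 10.9 in Cal27-shGRK2 (exact permutation p = 0.6, adjusted 0.6).

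Of the Toll-like receptors, TLR2 senses bacterial lipoproteins at the cell surface and TLR3 senses double-stranded RNA in endosomes. TLR2 was at 2.45, 2.57 and 2.79 FPKM in Cal27 and at 3.14 FPKM in both Cal27-shGRK2 libraries. The groups did not overlap, with Cal27-shGRK2 above, but the log2 fold change of TLR2, 0.20 ± 0.09, did not pass (limma adjusted p = 0.13). Its place in the table covers chromosome 4 from 153701500 to 153705699, whereas GENCODE version 29 begins the gene at 153684070, so upstream exons may not have been counted (ENSG00000137462.6, plus strand). TLR3 (ENSG00000164342.12, chromosome 4, 186069152 to 186088069, plus strand) was the least abundant of the 10 genes, at 1.12, 1.38 and 1.61 FPKM in Cal27, against 1.17 and 1.44 FPKM in Cal27-shGRK2. Its libraries were mixed, and the log2 fold change was -0.04 (95% interval -0.29 to 0.21, limma adjusted p = 0.84). The ratio of TLR2 to TLR3 ran from 1.74 to 2.18 in Cal27 and was 2.67 and 2.18 in Cal27-shGRK2 (exact permutation p = 0.3, adjusted 0.34).

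The order of the levels shifted with these changes. In Cal27 it was IFI16, MB21D1, MAVS, DDX58, IFIH1, DHX58, TMEM173, AIM2, TLR2 and TLR3 from highest to lowest, and of neighbours in that order only DHX58 and TMEM173 had overlapping ranges. In Cal27-shGRK2 MAVS stood above MB21D1 with no overlap. IFIH1 and DDX58 overlapped there, as did AIM2 with TMEM173 and TMEM173 with TLR2. IFI16 held 47.3% to 49.0% of the summed FPKM of the 10 genes in Cal27 and 36.5% to 39.2% in Cal27-shGRK2, while the share of MAVS went from 9.74% to 10.6% up to 16.2% to 16.5%. The sum itself was 144 to 146 FPKM in Cal27, against 99.8 and 102 FPKM in Cal27-shGRK2. By level IFI16 stood above 91.7% of the genes of the table in Cal27 and above 85.0% in Cal27-shGRK2, and TLR3 above 32.5% and 32.0%.

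**Figure D4:**
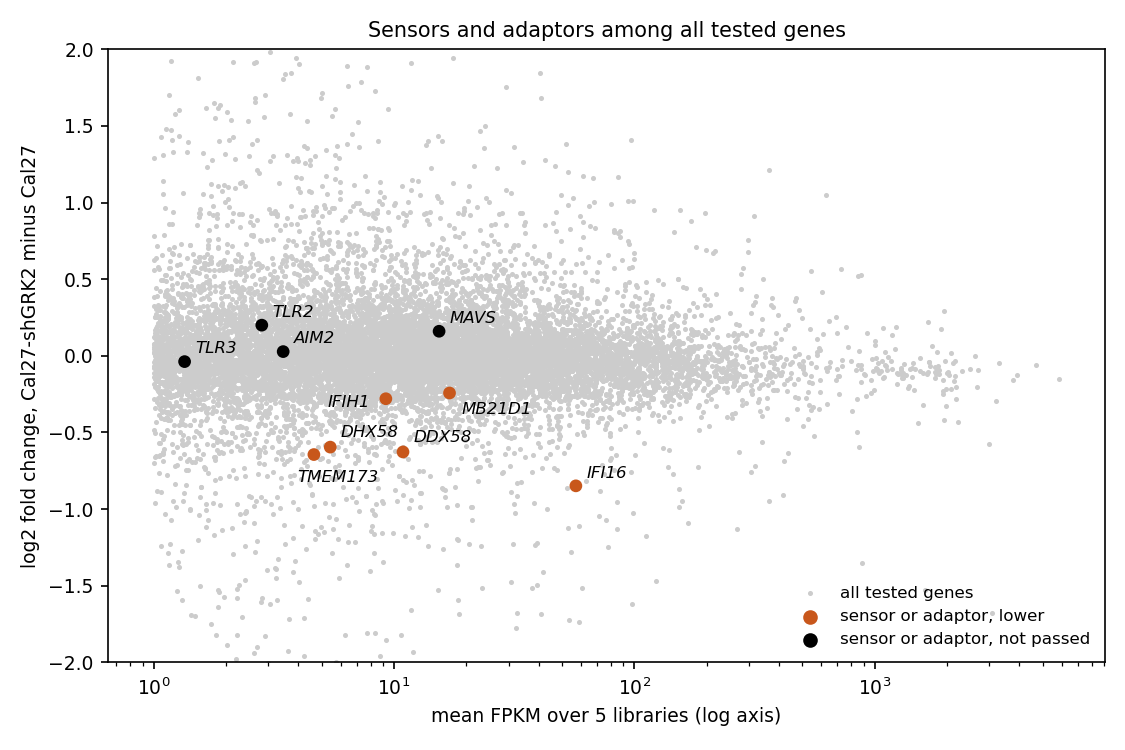
Log2 fold change (vertical axis, Cal27-shGRK2 minus Cal27) against the mean FPKM over 5 libraries (horizontal log axis) for all 13377 tested genes (grey), with the 10 sensors and adaptors in orange (lower) or black (not passed). The axis shows changes of up to 2 in size, which leaves out 76 genes. The 6 genes that fell span levels from TMEM173 to IFI16, and the genes that did not pass include MAVS, which lies at a level near DDX58 and MB21D1.

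The authors' deposited table gives fold changes of FPKM itself rather than of FPKM + 1. In nearly all genes its Cal27-shGRK2 value was not the mean of the columns of that group. The table comes from the same experiment, so it is no independent check, and it gave the same direction for 9 of the 10 genes. It marks 5 of them as significant and lower, DDX58 (log2 fold change -0.72, q = 6.1e-04), IFIH1 (-0.32, q = 0.020), DHX58 (-0.67), TMEM173 (-0.75) and IFI16 (-0.88), and none as higher. Over all 18678 genes the authors' deposited table marks 15.4% as significant, with 7.08% lower and 8.28% higher. TLR2 (log2 fold change 0.27, q = 0.063) and MAVS (0.17, q = 0.26) are not marked in the authors' deposited table, and TLR3 has a log2 fold change of 0.01 there.

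The genes around the sensors came from 8 lists with 134 genes in the table, of which 122 were tested, 39 fell and 14 rose. Over all genes tested 14.6% fell and 15.0% rose, and the counts of each list below are to be read beside these shares, which several of them are near. Their median log2 fold change was -0.06. Among 19 tested adaptors and regulators of RIG-I-like receptors there were 3 falls and 2 rises (median 0.05). Those that fell are themselves interferon-stimulated: IFIT1, which binds viral RNA, went from 41.6 to 14.3 FPKM (log2 fold change -1.48), the helicase DDX60 from 6.50 to 2.34 FPKM (-1.16), and the zinc finger antiviral protein ZC3HAV1 from 23.3 to 15.1 FPKM (-0.59). TRAF3, a ubiquitin ligase that links MAVS to TBK1, rose by 0.29, a call that was lost without Cal27-shGRK2 replicate 2 (limma adjusted p = 0.13). Among 18 tested DNA sensing regulators and nucleases there were 3 falls and 1 rise (median -0.02). SAMHD1, which degrades deoxynucleotides, went from 11.9 to 7.41 FPKM (-0.62), and RNF5, a ubiquitin ligase of STING, had a log2 fold change of -0.30. TREX1, the main cytosolic DNA exonuclease, went from 15.1 to 12.9 FPKM and missed the threshold (log2 fold change -0.21, limma adjusted p = 0.054). It passed without Cal27 replicate 1 (adjusted p = 0.041) and under the 5 FPKM filter (adjusted p = 0.031).

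Of 14 tested Toll-like receptors, adaptors and partners 5 rose and 1 fell (median 0.11), beside 15.0% and 14.6% of all genes tested. TLR4, the receptor for bacterial lipopolysaccharide, was at 1.67, 2.01 and 2.09 FPKM in Cal27 and at 4.48 and 4.85 FPKM in Cal27-shGRK2, with no overlap (log2 fold change 0.96, limma adjusted p = 3.0e-06). Its partners CD14 and LY96, named after their values were seen, were under the filter, at means of 0.883 and 0.435 FPKM in Cal27, against 0.629 and 0.233 FPKM in Cal27-shGRK2. TICAM1, an adaptor of TLR3 and TLR4, went from 10.6 to 14.5 FPKM (0.42), and MYD88, an adaptor of most Toll-like receptors including TLR4, from 19.1 to 24.3 FPKM (0.34). HSP90B1, a chaperone of these receptors, had a log2 fold change of -0.24, and its call was lost without Cal27-shGRK2 replicate 2 (limma adjusted p = 0.054) and in 1 of the fits with a replicate block (limma adjusted p = 0.10).

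Downstream, TBK1 fell from 14.4 to 10.8 FPKM (log2 fold change -0.39, limma adjusted p = 9.8e-04), and 2 of 10 tested kinases of that list fell and none rose, with a median of -0.03. IRF3, the factor that TBK1 phosphorylates, was at 72.0 to 84.3 FPKM in Cal27 and at 75.0 and 75.1 FPKM in Cal27-shGRK2 and did not pass. Of 10 tested STAT and IRF factors 3 fell and none rose, with a median of -0.05. IRF9, the DNA-binding part of the factor that recognises the interferon-stimulated response element, was at 15.6, 12.1 and 11.0 FPKM in Cal27 and at 2.49 and 2.60 FPKM in Cal27-shGRK2, with a mean that was 5.08-fold lower (log2 fold change -1.96, limma adjusted p = 5.1e-07). IRF7, the interferon-inducible partner of IRF3, went from 9.78 to 5.90 FPKM (-0.64).

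**Figure D5:**
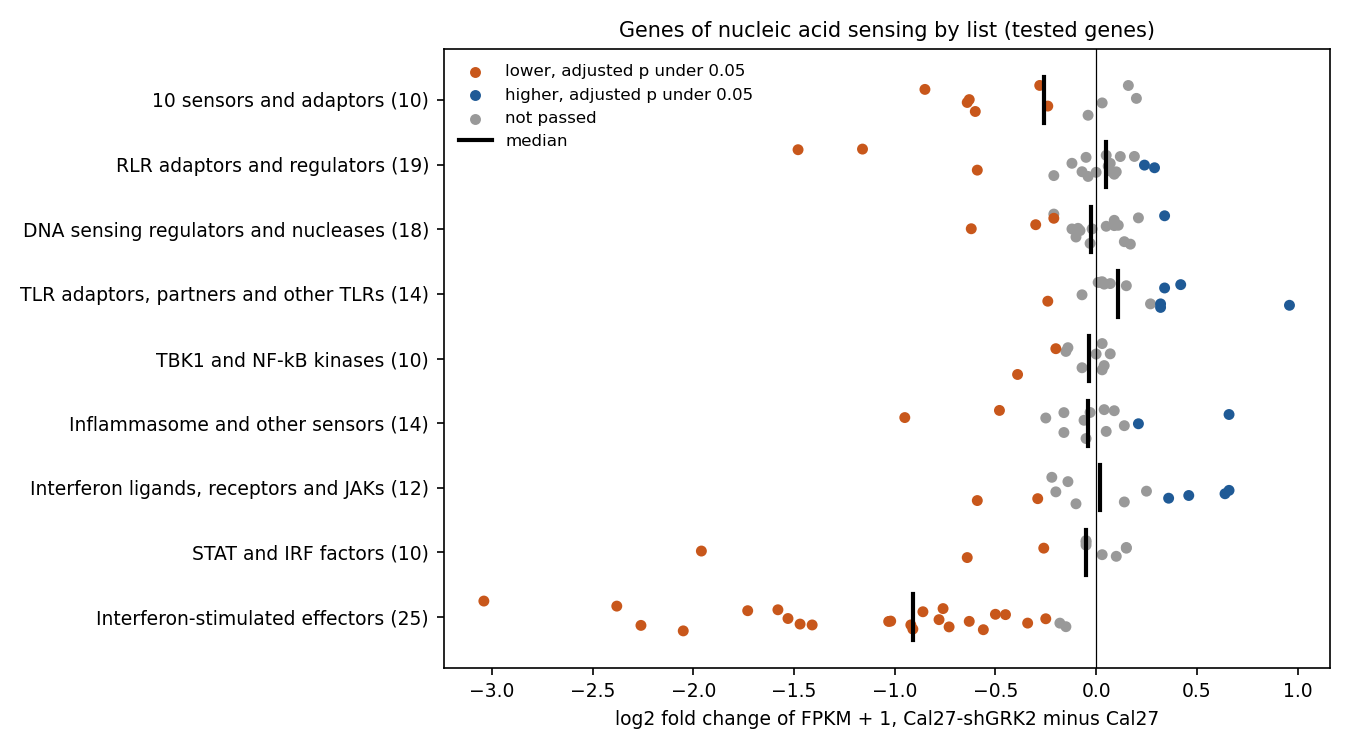
Log2 fold change (horizontal axis, Cal27-shGRK2 minus Cal27) of each tested gene of the 10 sensors and adaptors and of the 8 surrounding lists, with the number tested in brackets. Orange is lower, blue higher and grey not passed at an adjusted p of 0.05, and black bars are medians. Interferon-stimulated effectors have the lowest median, at -0.91, and the Toll-like receptor list the highest, at 0.11.

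Inflammasome genes and other sensors, 14 of them tested, had 2 falls and 2 rises (median -0.04). The caspase CASP1 went from 14.9 to 10.4 FPKM (log2 fold change -0.48) and its substrate IL1B from 8.82 to 4.06 FPKM (-0.95), beside an AIM2 level that did not pass. NLRC5, a regulator of class I HLA genes, rose from 13.2 to 21.4 FPKM (0.66). Interferon ligands, receptors and JAK kinases, 12 of them tested, had 4 rises and 2 falls (median 0.02). The feedback inhibitor SOCS3 (0.66) and the interferon lambda receptor chain IFNLR1 (0.64) rose. USP18, which removes ISG15 and restrains the type I receptor, fell by 0.59. IFNGR1, a chain of the interferon gamma receptor, had a log2 fold change of -0.29, with its call lost without the library shared by replicates 0 and 1 (limma adjusted p = 0.056). IFNE, named after its values were seen, was the only interferon gene of the list in the table, and it was under the filter in both groups, at 0.460 to 0.882 FPKM in Cal27 and at 0.338 and 0.210 FPKM in Cal27-shGRK2. IFNB1 and the interferon lambda genes were not analysed here.

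The list of interferon-stimulated effectors had the largest share of falls of the 8 lists, with 23 of 25 lower and none higher and a median of -0.91. Like the other lists it was chosen with earlier results of these data known, so that share is not an independent finding. Its largest falls on the log2(FPKM + 1) scale were IFI6 (log2 fold change -3.04), OASL (-2.38) and IFI27 (-2.26), each larger in size than any of the 10 sensors. That scale understates low genes. IFI44L, named after its values were seen, went from 3.57 to 0.0951 FPKM, a larger ratio of means (37.6-fold) than the 8.59-fold of IFI6. Low genes of other lists did not all go down. IRAK3 went from 0.154 to 1.34 FPKM and NLRP3 from 0.0585 to 0.274 FPKM, without overlap. Both were under the filter and are named after their values were seen. By the distance between centred log2(FPKM + 1) values over the 5 libraries, the genes outside the lists most like IFI16 were BTG2, an antiproliferative factor (distance 0.035), the sodium channel subunit SCNN1A (0.038) and the tetraspanin TSPAN13 (0.046). In FPKM itself BTG2 had the larger ratio of means, 2.92-fold (2.13 to 0.732 FPKM), against 1.82-fold for IFI16. Many genes separate the groups, and such likeness over 5 libraries is a description only.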

How the data were processed

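Stranded mRNA libraries were made from total RNA of cells harvested before confluence, per the labels' protocols. Bowtie2 2.2.6, TopHat2 2.1.0, Cuffdiff 2.2.1 and hg38 are named in the submitters' processing notes, without their roles. The authors deposited FPKM per library and per condition, p-values and q-values, a log2 fold change and a score used for their test, per the file headers. The score was not used here. An FPKM of 0 is deposited as 0.0001 and was read as 0. The authors' condition value equalled the mean of the columns within a relative tolerance of 1e-04 in 100% of 13383 genes for Cal27 and in 0.389% for Cal27-shGRK2.

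The 13377 genes whose mean over 5 libraries reached 1 FPKM entered a fit of log2(FPKM + 1) in limma 3.58.1 (R 4.3.3, trend and robust empirical Bayes, 3 residual degrees of freedom). Two-sided p-values were adjusted by Benjamini-Hochberg over the whole fit and called at 0.05. This scale understates changes of low genes. The fit was tested on simulated data with independent noise and far fewer changed genes than were called here. There a larger share of its calls was false than the threshold names, and that share need not hold for these data. Adjusted p-values close to 0.05 are therefore uncertain. Whether the fit would find differences as small as those of MB21D1, IFIH1, MAVS and TLR2 was not tested. A gene that did not pass may still differ between the groups. Ratios of FPKM within a library were tested by an exact permutation test over libraries. The 10 genes and all lists were chosen with earlier results of these data known. Named genes are the 10, GRK2, up to 3 falls and 2 rises per list by size, and 10 chosen for their function. A gene that this rule names is not reported here. Alternatives were another pseudocount, 2 filters, 3 scalings, limma without trend, a replicate block, each library left out, and an added Cal27-shGRK2 library computed from the authors' condition value. Planned comparisons of protein sequences were not made, as no protein sequences were used here.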

Additional observations from a re-analysis of the deposited data

How the results depend on the processing

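With each library left out in turn, 2600 to 4028 genes passed, 4 to 6 of the 10 sensors and adaptors were lower and none was higher. Surrounding genes higher numbered 9 to 15, against 14 with all libraries. The value of 2600 came without the library that Cal27-shGRK2 replicates 0 and 1 share, and that of 9 without replicate 2 of that group. Of the 10 genes, 1 (MAVS) was higher under median-of-ratios scaling, under rescaling to a common total and with an added Cal27-shGRK2 library computed from the authors' condition value. Surrounding genes higher numbered 23 under rescaling to a common total, where the genes higher and lower were 2927 and 1575, against 2008 and 1949. DDX58, DHX58 and IFI16 stayed lower and past the threshold in all 15 alternatives, as did TMEM173 in the 14 in which it was tested, and IFIH1 and MB21D1 in 14 of 15. In 2 of these alternatives a single Cal27-shGRK2 library remains, and the spread comes from Cal27 alone. Over the 15 alternatives the log2 fold change ran from -0.88 to -0.80 for IFI16, and from -0.74 to -0.51 for DDX58. The sign turned for genes close to 0: AIM2 ran from -0.004 (without the shared Cal27-shGRK2 library) to 0.062 with 1 library left out, TLR3 from -0.12 to 0.045 (without the shared library, and 0.034 without Cal27 replicate 2), and IRF3 from -0.111 to 0.002 (without Cal27 replicate 1). TLR3 was at 0.008 with the added library, and IRF3 at 0.002 under rescaling to a common total and with a replicate block that took the shared library as replicate 0. The difference of the log2 ratio of IFI16 to TMEM173 ran from -0.202 to 0.068 with 1 library left out. A motif match on the gene strand alone was found for 1 gene, and the 1-base spacer pattern, chosen after seeing the data, matched 2, against 3. With a replicate block 3960 genes passed where the shared library was taken as replicate 0 and 3481 where it was taken as replicate 1, with 6 of the 10 genes lower in both. A fit with a block leaves fewer residual degrees of freedom than the main fit, so its p-values rest more on the spread of other genes. Deviations of same-numbered libraries correlated at 0.080 and 0.017 over genes, or -0.071 for number 1. With 2 Cal27-shGRK2 libraries the deviations mirror each other, so these values cannot show whether same-numbered libraries were handled together. Calls of other genes taken by the rule were lost in 5 (CYLD), 7 (PYCARD and TAB2) and 9 (DDX41 and POLR3F) of 15 alternatives. In each case the cause was not tested. Depth per library is unknown, so no counting error can be given for low genes such as TLR3.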
